A study of Homo sapiens with 14 samples.

Results

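The replication-dependent histone genes are the genes that encode the bulk of the histone proteins, and they were taken here by their symbols in GENCODE release 44: H1-1 to H1-5 and the H2AC, H2BC, H3C and H4C series. This gave 68 genes, of which 67 are among the 60876 genes in the files and H3C15 was not analysed: 5 of H1, 17 of H2A, 18 of H2B, 13 of H3 and 15 of H4. They lie on chromosome 6 (54 genes), chromosome 1 (13) and chromosome 12 (H4C16). Each of 7 groups of MDA-MB-231, an established line of human breast cancer cells, had 2 RNA-seq replicates: a control, RBI2 at 5 µM with labelled times of 10, 30 and 120 min, and CX-5461 at 5 µM with the same labelled times. The names of the deposited tables carry a different series of times, with smaller numbers, and every time given here is that of the labels. CX-5461 blocks initiation by RNA polymerase I, and RBI2 is a compound that lowers ribosomal RNA precursors. The control is described as untreated in the study's methods and as DMSO in its results, and its 2 libraries serve all 6 comparisons with a control. The libraries were made from poly(A)-selected RNA. The labels do not say that replicates came from separate cultures, so p-values measure only the spread between these libraries. Across all 14 libraries the cells carried VIM, a marker of mesenchymal-like cells, at 2779 to 3387 CPM, while of 5 markers of luminal and epithelial cells PGR was at 0, ESR1, CDH1 and ERBB3 reached at most 0.236, 0.295 and 0.748 CPM, and EPCAM stood at 9.17 to 14.3 CPM. CPM is a count scaled to the size of its library, with TMM factors.

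Replication-dependent histone genes are expressed in S phase, when new DNA must be packed into nucleosomes. Their mRNAs are the metazoan mRNAs that normally end without a poly(A) tail: the stem-loop binding protein SLBP holds a conserved stem-loop after the stop codon, the U7 snRNP binds a purine-rich element downstream, and the transcript is cleaved shortly after the stem-loop. Some of these genes also give polyadenylated transcripts that run past the stem-loop, often through a splice into a downstream exon, and such transcripts are captured by poly(A) selection in the usual way. H1 is the linker histone, H2A pairs with H2B and H3 pairs with H4 in the nucleosome core.

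The stem-loop that marks the 3′ end was searched for in each gene by the consensus of the histone stem-loop, 16 bases with some left free, on the gene's strand, from 100 bases before to 200 bases after the stop codon, with at most 1 mismatch at the fixed bases. All 68 genes held it, 67 of them without a mismatch, starting 23 to 68 bases past the stop codon (median 36), and 10 different 16-base sequences were found. In 58 of the 68 genes the shortest annotated transcript ended 4 to 6 bases after the stem-loop. The stem-loops of the genes that the results below turn on are shown from the GRCh38 genome, 5′ to 3′ on the gene's strand, with the stem-loop in capitals and 5 bases on each side in lower case; the coordinates are those of the capitals.
H4C1 (chr6:26022030-26022045, + strand): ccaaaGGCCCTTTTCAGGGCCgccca
H4C3 (chr6:26104317-26104332, + strand): ccaaaGGCCCTTTTCAGGGCCgctca
H4C16 (chr12:14770724-14770739, - strand): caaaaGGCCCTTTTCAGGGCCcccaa
H4C8 (chr6:26285131-26285146, - strand): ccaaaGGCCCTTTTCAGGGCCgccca
H1-4 (chr6:26157095-26157110, + strand): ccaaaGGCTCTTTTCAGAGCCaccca
H3C14 (chr1:149840692-149840707, - strand): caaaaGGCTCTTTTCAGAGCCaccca
H2BC15 (chr6:27839090-27839105, + strand): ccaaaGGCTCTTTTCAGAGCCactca
H2BC18 (chr1:149811885-149811900, - strand): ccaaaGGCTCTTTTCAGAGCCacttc
H2BC12 (chr6:27146366-27146381, - strand): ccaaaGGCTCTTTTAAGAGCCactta
H2BC5 (chr6:26158587-26158602, + strand): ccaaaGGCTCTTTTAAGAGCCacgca
H2BC11 (chr6:27132321-27132336, - strand): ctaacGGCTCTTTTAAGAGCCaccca
H2AC15 (chr6:27837885-27837900, - strand): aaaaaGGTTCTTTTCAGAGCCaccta

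The sequence carried by H1-4, H3C14, H2BC15 and H2BC18 was the commonest and was found in 40 genes of the H1, H2A, H2B and H3 types. The sequence of H4C1, H4C3, H4C8 and H4C16 was found in 10 genes, all of H4. The sequence shared by H2BC12, H2BC5 and H2BC11 was found in 8 genes. H2AC15 is shown because it alone had a mismatch. The 7 genes called in the comparisons below carried the 2 commonest sequences. In 300-base promoter windows of RefSeq (GRCh38.p14; 250 bases before to 50 after the start, for each gene the window nearest its GENCODE start, both strands searched), 63 of the 68 genes were matched, each to a window of its own; that of H2BC6 lies inside the annotated gene. CCAAT stood in 53 of the 63, against 35.7% of all 27305 windows, and TATAAA in 43, against 12%. ATTTGCAT, the octamer bound by POU2F1, stood in 25, of which 14 were among the 18 H2B genes and 11 among the 16 H2A genes, against 1.80% of all windows. AAACACA, the H1 box, stood in 5 of 5 H1 genes and in 8 of the 63 in all, against 5.76% of all windows. These matches describe the letters in the windows.

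By the annotation, a gene has a polyadenylated form if any of its transcripts has more than 1 exon or ends more than 100 bases past the stop codon. This put 18 genes in the class with a polyadenylated form (16 of them through a spliced transcript) and 50 in the class without. H3C12 is counted in the class with a form although its spliced transcript ends before the stop codon. The genes with such a form were 8 of the 18 H2B genes, 4 of the 15 H4 genes, 3 of H2A and 3 of H3, and none of H1. The transcript models behind the deposited values differ from GENCODE 44: they extend some genes that GENCODE 44 ends near the stem-loop, and by the deposited lengths 27 genes have a long form, 10 of them in the class without. H2AC11, H3C14 and H3C8 are among these 10.

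Reads of the 68 genes made up 0.00709% to 0.0135% of a library, or 1039 to 2297 reads out of 14112299 to 24849354. H2BC12 held 34.7% of these reads over the 14 libraries, and H1-2, a linker histone, and H2BC5 held a further 12.1% and 8.63%; the 10 genes with the most reads held 81.1%. Per length, H2BC12 averaged 107 TPM, H1-2 26.8, H2BC5 18.1, H2AC18 14.9, H4C3 9.19 and H2AC6 7.19 TPM. H2BC11 at 5.39 TPM, H4C8 at 4.56, H4C15 at 4.52, H1-4 at 4.52, H4C1 at 3.75, H2BC4 at 3.38 and H2AC20 at 2.74 TPM followed, and the highest H3 genes, H3C2, H3C3 and H3C12, averaged 1.21, 1.03 and 0.921 TPM. Between libraries, H1-2 ranged from 17.3 to 35.7 TPM and H2BC5 from 14.5 to 21.4 TPM, so their order by level was not separated in every library. H2BC12, the gene with the highest level, belongs to the class without an annotated polyadenylated form, and the 50 genes of that class held 65.8% of the members' reads. Of the 31-base words of H2BC12, 71.0% also occur in another annotated gene, so Salmon's division of its reads is uncertain; this was so for more than 50% of the words in 8 of the 24 genes tested below.

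Of the 67 genes in the files, 46 had reads and 21 had none assigned in any of the 14 libraries. For counting error alone this allows at most 3 reads in a library, or 0.121 to 0.213 CPM by library size; it is a limit on the reads that Salmon assigned to these transcript models, not on expression. Whether the set of transcripts that reads were assigned to plays a part in the zeros was not tested. Of the genes without reads, 2 lie on chromosome 1, H2AC19 and H2AC25. The other 19 lie on chromosome 6, where most fell into runs. From H4C4 to H2BC10 (chr6:26188710-26273412, GRCh38), 15 members lie in a row over 84.7 kb, and 13 of them were at 0. The other two were H3C6, with 35 reads in 12 libraries from a gene with an annotated spliced form, and H3C8, with 3 reads. The members on either side, H2BC6 and H4C8, had 85 and 583 reads. A second run of 4 genes, H2AC16, H1-5, H3C11 and H4C13 (chr6:27865317-27873534), lay between H2BC15 with 402 reads and H3C12 with 56. The pair H2AC1 and H2BC1 at the start of the cluster had no reads either, and H1-1 next to it had 1. Thus H1-3 and H1-5 were at 0 while H1-2 and H1-4 were read in every library. Of the 21 genes at 0, 18 share under 20% of their 31-base words with any other annotated gene. H2AC18 and H2AC19, near-identical copies on chromosome 1, share almost all of theirs, and all of their reads were listed under H2AC18.

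**Figure D1:**
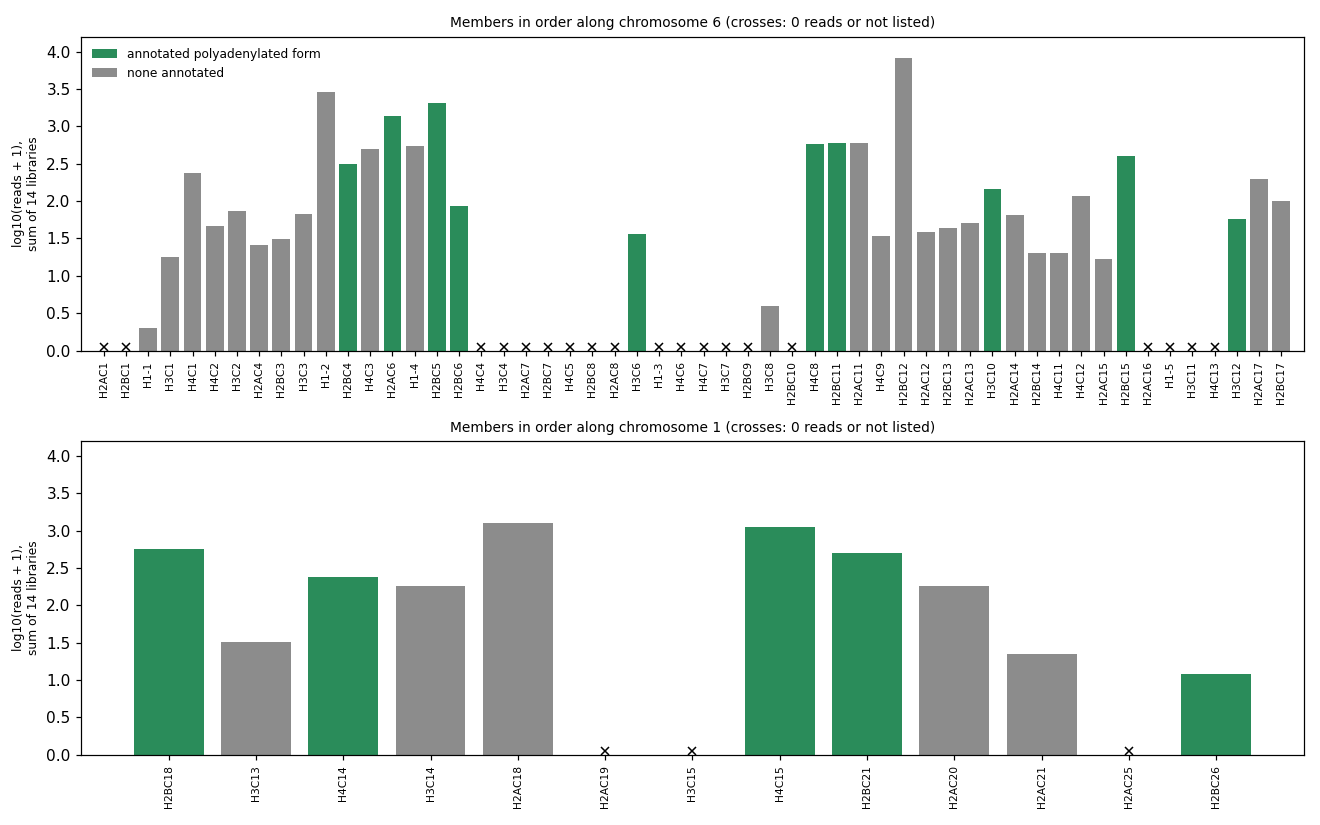
Estimated reads of each histone gene, summed over the 14 libraries and drawn as log10(reads + 1), with the genes in order along chromosome 6 (upper panel) and chromosome 1 (lower panel). Green bars are genes with an annotated polyadenylated form and grey bars are genes without; 15 neighbours from H4C4 to H2BC10 include 13 genes at 0, marked by crosses.

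To compare the classes over the 7 groups, the CPM of their genes were summed in each library, over all 18 and all 50 members without a filter. Genes with a polyadenylated form summed to 36.4 and 37.5 CPM in the control libraries, to 29.8 and 33.3, 35.6 and 36.0, and 39.1 and 47.7 CPM with RBI2 at 10, 30 and 120 min, and to 31.5 and 31.2, 32.5 and 34.4, and 29.6 and 31.2 CPM with CX-5461. Both RBI2 libraries at 120 min lay above the control libraries, and the other 10 treated libraries, 4 with RBI2 and 6 with CX-5461, lay below them. The log2 ratio to the control was 0.23 ± 0.21 (SD, n = 2) with RBI2 at 120 min, -0.23 ± 0.12 and -0.044 ± 0.032 with RBI2 at 10 and 30 min, and -0.23 ± 0.03, -0.14 ± 0.07 and -0.28 ± 0.06 with CX-5461 at 10, 30 and 120 min. On the deposited TPM values these ratios came to 0.029, 0.22 and 0.56 with RBI2 at 10, 30 and 120 min and to -0.012, 0.078 and -0.053 with CX-5461, so the lower sums did not hold on that scale. On CPM with each library left out in turn, the RBI2 ratios ran from -0.31 to -0.15 at 10 min. They ran from -0.07 to -0.02 at 30 min and from 0.08 to 0.37 at 120 min.

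Genes without a polyadenylated form summed to 70.9 and 45.5 CPM in the control libraries, to 58.3 and 63.0, 68.7 and 66.4, and 75.2 and 88.6 CPM with RBI2, and to 66.4 and 59.7, 67.6 and 73.2, and 64.0 and 56.4 CPM with CX-5461. Control replicate 2 stood apart from every other library: it had the lowest sum of this class, the lowest H2BC12 level (24.9 CPM against 30.8 to 39.7 in the other 13) and the highest share of mitochondrial reads, 20.6% against 8.14% to 11.3%. The part of that share in the difference was not tested. With this library in the control, the log2 ratio of the class was 0.49 ± 0.48 (SD, n = 2) with RBI2 at 120 min; it was 0.21 without control replicate 2 and 0.85 without control replicate 1. For the other treated groups the ratio lay between 0.05 and 0.27 and was smaller than its SD. Without H2BC12, the remaining 49 genes summed to 31.3 and 20.6 CPM in the control libraries and to 41.8 and 56.4 CPM with RBI2 at 120 min, the 2 highest of the 14 libraries.

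**Figure D2:**
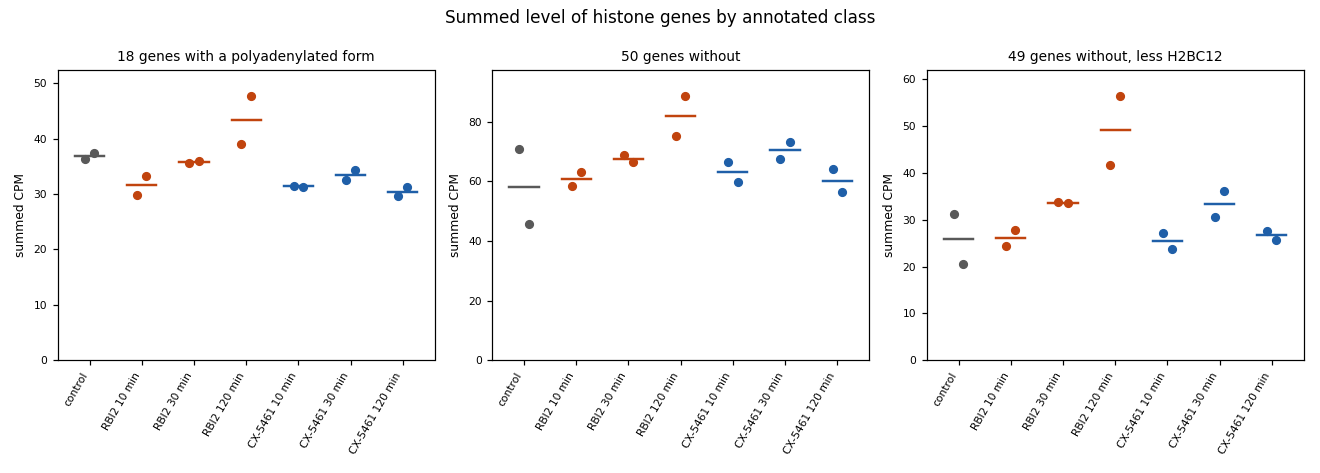
Summed CPM of the genes with an annotated polyadenylated form, of those without, and of those without H2BC12, in each of the 14 libraries. Points are libraries and lines are the means of 2 replicates; the RBI2 libraries labelled 120 min are highest in each panel, and the 2 control libraries differ widely in the second.

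For the test of single genes, 24 of the 68 members passed the filter on low counts, 12 in each class. Of these, H2BC17, H4C12 and H4C16 passed only because of the RBI2 libraries at 120 min, so a higher level there was a condition of their being tested. With RBI2 at 120 min against the control, 5 of the 24 were called (edgeR's quasi-likelihood test, adjusted p under 0.05 and a log2 fold change of at least 1), all of them higher, where 1.42% of the 15426 tested genes were called higher. They were H4C1, H1-4, H3C14, H4C16 and H4C3. Without the 3 genes that passed the filter only through the libraries tested here, 4 of 21 were called, and the call of H4C16 is a description. The median log2 fold change of the 24 was 0.54, against 0.01 for all tested genes; it was 1.08 for the 12 genes without a polyadenylated form and 0.12 for the 12 with one. Without the same 3 genes it was 0.32 over 21 genes, 0.81 for the 10 without a form and 0.02 for the 11 with one. The class without a form had the higher median in all 6 comparisons with the control, which share its 2 libraries. With RBI2 at 10 and 30 min, the medians without and with a form were 0.07 and -0.25, and 0.45 and -0.06. With CX-5461 at 10, 30 and 120 min they were 0.02 and -0.49, 0.27 and -0.23, and 0.003 and -0.38. For RBI2 against CX-5461 at these times they were 0.02 and 0.08, 0.22 and 0.10, and 0.80 and 0.51. Of the 5 genes called there at 120 min, 3 have a form.

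H4C1 encodes the core histone H4 and lies at chr6:26021649-26022050; its annotated transcript ends 5 bases past the stem-loop shown above. H4C1 stood at 0.435 and 0.320 CPM in the control libraries, at 0.486 and 0.865, 0.702 and 1.32, and 3.42 and 3.33 CPM in the RBI2 libraries labelled 10, 30 and 120 min, and at 0.216 and 0.222, 0.599 and 1.59, and 0.693 and 0.290 CPM in the CX-5461 libraries of the same labels. The RBI2 libraries at 120 min were above all others, and their log2 fold change to the control was 3.12 (SE 0.56, adjusted p = 0.0108). H1-4, a linker histone at chr6:26156329-26157115, followed. H1-4 stood at 2.24 and 1.04 CPM in the control libraries, at 1.40 and 1.42, 4.44 and 3.43, and 5.07 and 7.03 CPM in the RBI2 libraries labelled 10, 30 and 120 min, and at 0.593 and 0.778, 1.86 and 1.97, and 1.22 and 0.753 CPM in the CX-5461 libraries of the same labels. Both RBI2 groups at 30 and 120 min lay above all control and CX-5461 libraries, and the change at 120 min was 1.85 (SE 0.34, adjusted p = 0.0114). Neither gene has a long form in either set of transcript models, and they share 0.538% and 0.925% of their 31-base words with other genes.

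H3C14 encodes H3, on chromosome 1. H3C14 stood at 0.497 and 0.160 CPM in the control libraries, at 0.364 and 0.803, 1.03 and 1.06, and 1.65 and 1.88 CPM in the RBI2 libraries labelled 10, 30 and 120 min, and at 0.269 and 0.667, 0.732 and 0.382, and 0.611 and 0.637 CPM in the CX-5461 libraries of the same labels. The change at 120 min of RBI2 was 2.34 (SE 0.57, adjusted p = 0.0243), with both libraries above the other 12. H3C14 is nearly identical to H3C15, with 99.2% of its words shared, and the 2 genes' reads could not be told apart. H4C16, an H4 gene on chromosome 12 with spliced transcripts, was low. H4C16 stood at 0.186 and 0.0799 CPM in the control libraries, at 0.121 and 0.0618, 0.468 and 0.528, and 0.767 and 0.797 CPM in the RBI2 libraries labelled 10, 30 and 120 min, and at 0.0539 and 0.0556, 0.466 and 0.382, and 0.244 and 0.0579 CPM in the CX-5461 libraries of the same labels. It had 13 and 11 reads in the RBI2 libraries at 120 min and 1 to 10 in the others, and the change was 2.43 (SE 0.61, adjusted p = 0.0268).

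H4C3 (chr6:26103933-26104337) followed a course of its own, with no word shared with another gene. H4C3 stood at 1.62 and 1.12 CPM in the control libraries, at 0.364 and 0.680, 0.608 and 0.594, and 3.19 and 2.68 CPM in the RBI2 libraries labelled 10, 30 and 120 min, and at 1.67 and 1.17, 4.19 and 4.71, and 3.26 and 3.24 CPM in the CX-5461 libraries of the same labels. Levels were below both control libraries with RBI2 at 10 and 30 min and above them with RBI2 at 120 min and with CX-5461 at 30 and 120 min. At 120 min of RBI2 the change was 1.09 (SE 0.29, adjusted p = 0.0299). H2BC15 passed the adjusted p without the limit on the fold change, at 0.95 (SE 0.28, adjusted p = 0.0410), which made 6 of 24 under that rule, or 5 of 21 without the 3 genes named above, against 8.90% of all tested genes called higher. H2BC15 stood at 1.49 and 1.84 CPM in the control libraries, at 1.64 and 1.54, 1.36 and 2.18, and 3.42 and 2.97 CPM in the RBI2 libraries labelled 10, 30 and 120 min, and at 1.13 and 1.22, 1.07 and 1.46, and 1.55 and 1.27 CPM in the CX-5461 libraries of the same labels. Its RBI2 libraries at 120 min were the 2 highest of the 14.

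Among the genes with more reads, H2BC12 had a log2 fold change of 0.02 (SE 0.17, adjusted p = 0.953), H2BC5 of 0.02 (SE 0.15, adjusted p = 0.926) and H2AC6 of -0.20 (SE 0.16, adjusted p = 0.406), and none of the 3 passed the test. These 3, together with H2AC11 (log2 fold change 0.05), were the members whose levels varied least: the highest library was 1.42 times the lowest for H2AC6, 1.46 times for H2BC5, 1.59 times for H2BC12 and 2.09 times for H2AC11. H1-2 had 0.53 (SE 0.23, adjusted p = 0.130) and H2AC18 had 0.55 (SE 0.25, adjusted p = 0.142), and neither passed. H2BC17, which varied 22.9-fold between libraries, stood at 0.435 and 0.0799 CPM in the control and 0.944 and 1.23 CPM with RBI2 at 120 min (1.96 (SE 0.71, adjusted p = 0.0780)). H4C12, at 0 in control replicate 1, stood at 0.559 CPM in control replicate 2 and at 0.708 and 1.09 CPM with RBI2 at 120 min. The untested H3 genes H3C2 and H3C3 stood at 0.413 and 1.16 and at 0.177 and 0.797 CPM there, against 0.373 and 0 and 0.186 and 0.240 CPM in the control.

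H4C14 and H4C15, near-identical copies on chromosome 1, traded reads between libraries: H4C15 was at 0 in CX-5461 replicate 2 at 30 min, where H4C14 had its highest level of 6.04 CPM, and H4C14 was at 0 in CX-5461 replicate 1 and RBI2 replicate 2 at 30 min, where H4C15 stood at 5.93 and 5.94 CPM. H4C15 and H4C14 share 100% and 98.6% of their words, and no change is read from either gene alone.

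**Figure D3:**
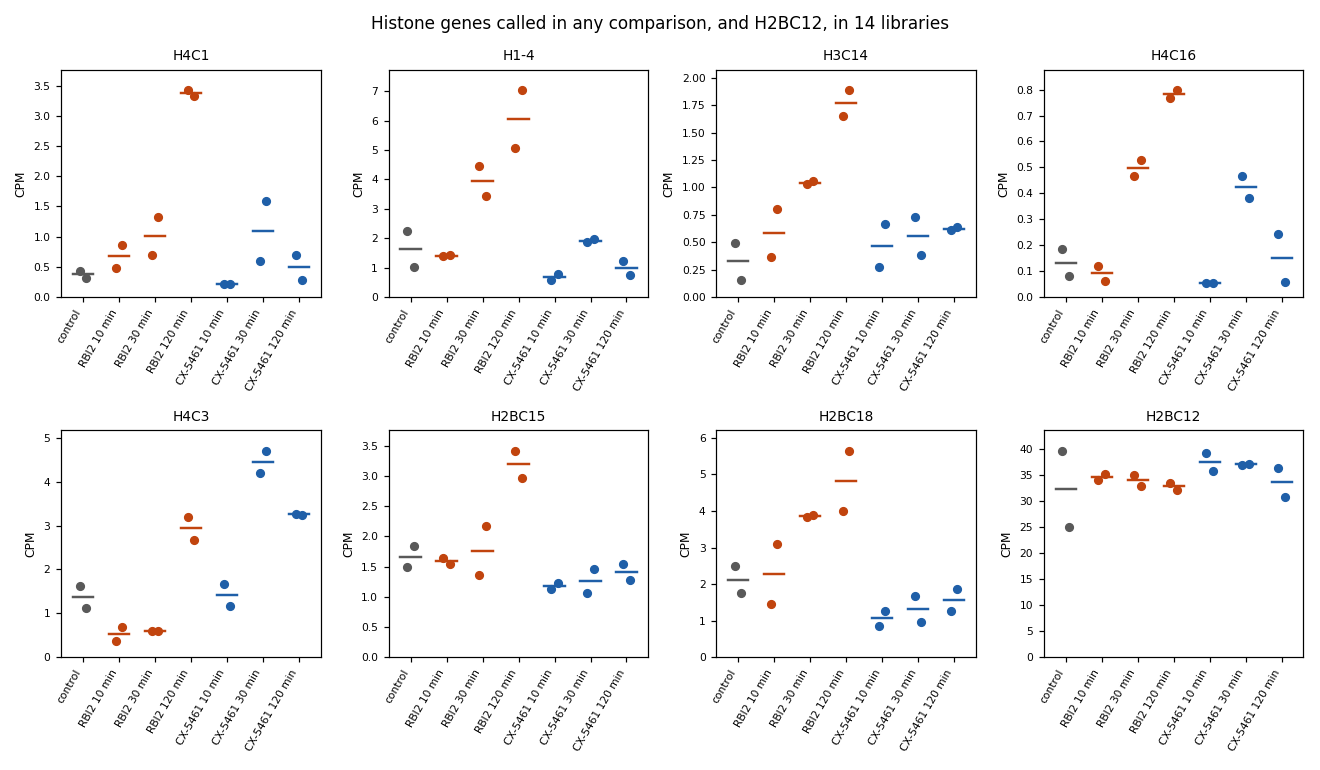
CPM of the 7 histone genes called in any comparison, and of H2BC12, in the 14 libraries. Points are libraries and lines are the means of 2 replicates; H4C1 lies between 3.33 and 3.42 CPM with RBI2 labelled 120 min and at or below 1.59 CPM elsewhere, whereas H4C3 is lowest with RBI2 labelled 10 and 30 min and highest with CX-5461 labelled 30 min.

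The count of 5 rested on these libraries: without RBI2 replicate 1 or replicate 2 at 120 min it was 0 and 0, without control replicate 1 it was 10, and without control replicate 2 or RBI2 replicate 2 at 30 min it was 3 each time. With each library left out in turn, the log2 fold change ran from 1.81 to 3.40 for H3C14, 1.42 to 2.52 for H1-4, 2.02 to 3.17 for H4C16, 0.86 to 1.38 for H4C3 and 2.93 to 3.36 for H4C1; in each the lower end was without control replicate 2 and the upper without control replicate 1. Fitted on the 4 libraries of the comparison alone, edgeR called 0 of them, with adjusted p of 0.279 to 0.301 for the 5, and DESeq2 on all libraries called 3 of the 24.

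RNAs that carry no poly(A) tail were also highest in the RBI2 libraries at 120 min, but their course before that differed from that of the histone genes. Of 22 such RNAs listed beside the histones (the 7SL and 7SK RNAs, RNase MRP and P RNAs, spliceosomal RNAs and others), 21 were matched and 7 were tested. Their summed level was 37.5 and 10.8 CPM in the control libraries, 65.3 and 79.9, 56.9 and 40.6, and 109 and 172 CPM with RBI2 at 10, 30 and 120 min, and 37.2 and 29.2, 31.8 and 32.2, and 21.6 and 17.4 CPM with CX-5461. All 6 RBI2 libraries were above all 8 others, and those at 120 min were the highest. The RBI2 libraries at 10 min were above those at 30 min. The median log2 fold change of the 24 histone genes was -0.14 at 10 min and 0.11 at 30 min. At 120 min of RBI2, 5 of the 7 were called higher, against 1.42% of all tested genes: RMRP at 4.35 (adjusted p = 0.0420), SNORD3A at 3.91 (adjusted p = 0.0287), RN7SL2 at 2.68 (adjusted p = 0.00749), RN7SL1 at 2.59 (adjusted p = 0.0220) and RN7SK at 2.34 (adjusted p = 0.0120), with a median of 2.59 over the 7. All 7 reached the minimum of the filter in enough libraries of other groups to be tested. RMRP was uneven, at 1.18 and 8.91 CPM in the 2 libraries. RNU7-1, the RNA of the U7 snRNP, was at 0 in all libraries. The part of this change in the levels of the histone mRNAs was not tested. A larger share of cells in S phase and more histone RNA per cell cannot be told apart in these bulk libraries.

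Salmon also divides the reads of a gene between its transcripts. For 6 members these include both a short form that ends near the stem-loop and a long form. The long form of H3C12 is a spliced transcript that ends before the stop codon, and it had 0 reads. H4C8 was assigned 42 and 26.6 short-form reads with RBI2 at 120 min. It was assigned 0 in both control libraries and all 6 CX-5461 libraries, 0 and 10.4 with RBI2 at 10 min and 7.6 and 9.8 with RBI2 at 30 min. The share of its reads in the long forms was 35.3% and 41.8% with RBI2 at 120 min and 100% in the control and CX-5461 libraries. While the level of the whole gene did not pass the test (0.22 (SE 0.33, adjusted p = 0.670)), the division within it moved. For H2BC5 the short form had 13.8 and 19.8 reads with RBI2 at 120 min and 0 and 3.6 in the control, and the long form held 90.6% and 86.0% against 100% and 97.2%. For H2BC11 the short form had 11 and 17.9 reads against 5.3 and 0, and the long forms held 72.1% and 59.2% against 91.4% and 100%; with RBI2 at 30 min it had 16.3 and 6.3 short-form reads, with 72.1% and 86.2% in the long forms. H2BC6 and H3C6 were assigned 0 short-form reads in both RBI2 libraries at 120 min. H3C12 had 5 and 7 there, against 4 and 5 in the control and 7 and 9 with CX-5461 at 30 min. Over the 6 genes, short forms had 71.8 and 71.3 reads in the RBI2 libraries at 120 min (4.24 and 5.17 CPM). They had between 1 and 32.3 reads in the other 12 (0.054 to 1.51 CPM). In the same libraries the long forms of the 6 genes had 11.7 and 12.7 CPM, within the 11.1 to 15.8 CPM of the others. These are Salmon's estimates from few reads, given as a description.

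**Figure D4:**
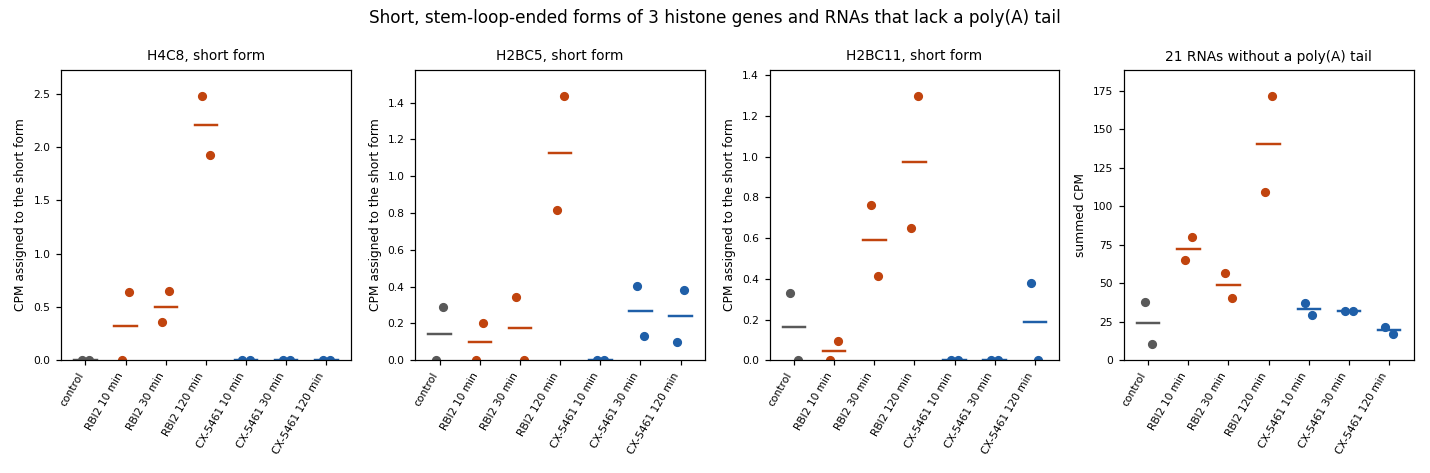
CPM that Salmon assigned to the short, stem-loop-ended forms of H4C8, H2BC5 and H2BC11, and the summed CPM of 21 RNAs without a poly(A) tail, in the 14 libraries. Points are libraries and lines are the means of 2 replicates; in all 4 panels the mean of the RBI2 libraries labelled 120 min is the highest, and in H2BC11 a library labelled 30 min overlaps them.

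With RBI2 at 10 and 30 min, 0 of the 24 genes were called against the control by edgeR's quasi-likelihood test, where 0.0778% and 0.0389% of all tested genes were called; 2 and 6 had an unadjusted p under 0.05, against 12.9% and 25.8% of all tested genes, and DESeq2 called 0 and 0. The median log2 fold change of the 24 was -0.14 and 0.11. H4C3 had a log2 fold change of -1.39 (SE 0.34, adjusted p = 0.166) at 10 min and -1.19 (SE 0.33, adjusted p = 0.113) at 30 min. H1-4 stood at 1.24 (SE 0.34, adjusted p = 0.111), H3C14 at 1.58 (SE 0.59, adjusted p = 0.146) and H4C1 at 1.36 (SE 0.60, adjusted p = 0.188) at 30 min, all with both RBI2 libraries above both control libraries. None of these passed the adjusted p.

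With CX-5461 at 10, 30 and 120 min, 0 of the 24 were called by edgeR's quasi-likelihood test, where 1.64%, 0% and 0.0454% of all tested genes were; 2, 3 and 1 had an unadjusted p under 0.05, against 22.5%, 22.9% and 12.4%, and DESeq2 called 0, 1 and 0. The medians were -0.31, 0.02 and -0.15. H4C3 had log2 fold changes of 1.68 (SE 0.28, adjusted p = 0.213) at 30 min and 1.23 (SE 0.28, adjusted p = 0.265) at 120 min, with both CX-5461 libraries above both control libraries each time. H1-4 was at -1.28 (SE 0.40, adjusted p = 0.103) and H2BC18 at -1.0 (SE 0.42, adjusted p = 0.202) at 10 min, with both CX-5461 libraries below the control. At 30 min H4C1 was at 1.51 (SE 0.60, adjusted p = 0.213) and H4C16 at 1.56 (SE 0.66, adjusted p = 0.213). Each of these genes had both CX-5461 libraries at 30 min above both control libraries. The comparisons of CX-5461 share the control libraries with those of RBI2.

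Compared directly at the same dose and labelled time, RBI2 and CX-5461 differed in H4C3 early and in other members late. At 10 min, 1 of the 24 genes was called, H4C3, where 0.402% of all tested genes were called lower. It was lower with RBI2 at a log2 fold change of -1.43 (SE 0.34, adjusted p = 0.0477). The call was not made by DESeq2, with a transcript-length offset, on the 4 libraries of the comparison alone or with a replicate block. That call was lost when any of the 12 treated libraries was left out, with adjusted p up to 0.324, and the fold change ran from -1.94 without RBI2 replicate 2 to -1.07 without RBI2 replicate 1. At 30 min H4C3 was again the only member called, lower with RBI2 at a log2 fold change of -2.87 (SE 0.30, adjusted p = 0.0132), and it was 1 of the 2 genes called lower among all 15426 (0.013%). Its levels were 0.608 and 0.594 CPM with RBI2 and 4.19 and 4.71 CPM with CX-5461, in 13, 9, 63 and 74 reads. The fold change ran from -2.99 to -2.79 when each library was left out in turn, but the call was lost without either CX-5461 library at 120 min, either at 30 min, either RBI2 library at 30 min, or RBI2 replicate 1 at 120 min (adjusted p 0.0502 to 0.304).

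At 120 min, 5 of the 24 genes were called, and DESeq2 called 4 of the 24. The 5 were all higher with RBI2, where 1.27% of all tested genes were called higher. H4C3 was not among them: its log2 fold change was -0.14 (SE 0.26, adjusted p = 0.765), with 3.19 and 2.68 CPM for RBI2 and 3.26 and 3.24 CPM for CX-5461. H4C1 was higher by 2.71 (SE 0.51, adjusted p = 0.0115) and H1-4 by 2.57 (SE 0.34, adjusted p = 0.00670). H4C16, tested only because of its RBI2 libraries at 120 min, was higher by 2.21 (SE 0.55, adjusted p = 0.0249); without the 3 such genes 4 of 21 were called. The H2B genes H2BC15 and H2BC18 were higher by 1.17 (SE 0.27, adjusted p = 0.0201) and 1.64 (SE 0.38, adjusted p = 0.0202). H2BC18 stood at 2.49 and 1.76 CPM in the control libraries, at 1.46 and 3.09, 3.84 and 3.89, and 4.01 and 5.65 CPM in the RBI2 libraries labelled 10, 30 and 120 min, and at 0.862 and 1.28, 1.66 and 0.954, and 1.26 and 1.85 CPM in the CX-5461 libraries of the same labels. The RBI2 libraries at 120 min were the 2 highest; Salmon assigned 64.4 and 74.0 of the H2BC18 reads in them to its single-exon transcript and 3.5 and 3.7 to spliced ones. The deposited model of that single-exon transcript is 1954 bases long against 492 in GENCODE 44, so these reads are not shown to come from a form that ends at the stem-loop. More than 50% of the words of H2BC18 (57.1%) are shared with other genes. For H2BC15 most reads went to spliced transcripts instead. In the RBI2 libraries at 120 min these were assigned 18.3 and 21.5, and 30.3 and 13.7 reads. In the control they had 0 and 2.5, and 18.2 and 19.5. The single-exon transcript of H2BC15 had 9.4 and 6.1 reads against 5.5 and 1.4. Its deposited model is 1723 bases long against 542 in GENCODE 44, so these reads too are not shown to end at the stem-loop. The median of the 24 was 0.67 and that of the 21 was 0.57, against 0.01 for all tested genes. In this comparison 5 of the 7 RNAs without a poly(A) tail were also called higher with RBI2, against the same 1.27%, with a median of 2.71. The count of 5 was 0 without CX-5461 replicate 2 or RBI2 replicate 2 at 120 min, 1 without RBI2 replicate 1 at 120 min, and 9 without either control library. Without CX-5461 replicate 1 or replicate 2 at 120 min the fold change was 3.58 and 1.68 for H4C16 and 3.50 and 2.31 for H4C1; over all libraries left out it ran from 2.32 to 2.98 for H1-4, 1.37 to 1.96 for H2BC18 and 1.08 to 1.32 for H2BC15.

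**Figure D5:**
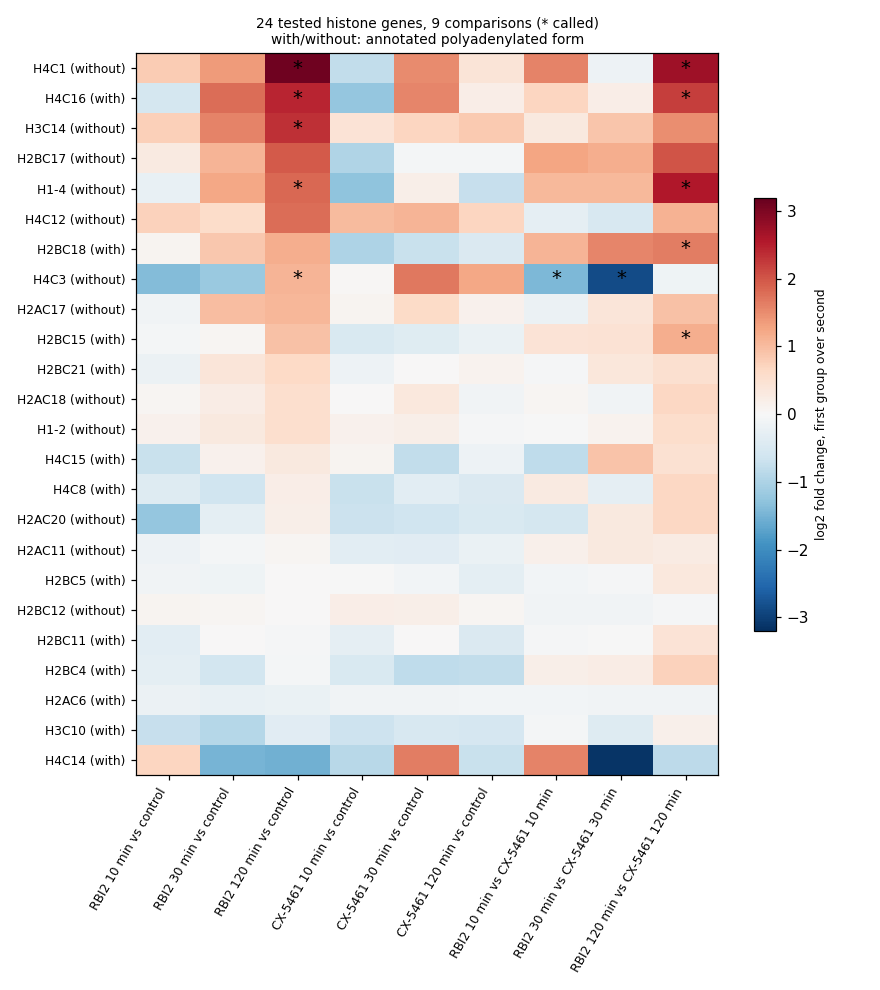
Log2 fold changes of the 24 tested histone genes (rows, sorted by RBI2 labelled 120 min against control) in 9 comparisons (columns); stars mark genes called, and the words with and without give the annotated class. The 5 genes called with RBI2 at 120 min against control rise by 1.09 to 3.12, and H4C3 is the lowest of the called values at -2.87 in RBI2 against CX-5461 labelled 30 min.

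Of 39 genes for 3′ processing and decay of histone mRNA, all of which were tested, 1 was called with RBI2 at 120 min, where 1.42% of all tested genes were called higher: MBLAC1, a nuclease of histone mRNA 3′ ends, at 1.24 (adjusted p = 0.0373). It was also called with CX-5461 at 10 min, at 1.53 (adjusted p = 0.0290), where 1.64% of all tested genes were called; DESeq2 called 0 of the 39 in either comparison. MBLAC1 stood at 0.399 to 1.89 CPM over the libraries. Without the limit on the fold change, 6 of the 39 were higher and 6 lower with RBI2 at 120 min, where 8.90% and 9.07% of all tested genes were, with a median of -0.14. SLBP stood at 116 and 136 CPM in the control libraries and at 97.5 and 95.6 CPM with RBI2 at 120 min, the 2 lowest of the 14, a log2 fold change of -0.38 (adjusted p = 0.0141), which is past the adjusted p and under the fold limit. Of the 10 tested genes for transcription of histone genes and the 27 for DNA replication and histone chaperones, edgeR called 0 with RBI2 at 120 min and DESeq2 called 0; 5 and 14 had an unadjusted p under 0.05, where 35.9% of all tested genes did. Without the fold limit, 0 and 2 were higher and 3 and 6 lower, with medians of -0.19 and -0.04.

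Of 10 tested histone genes that are expressed outside S phase and are polyadenylated, edgeR and DESeq2 called 0 with RBI2 at 120 min, a count near that 1.42% share of all tested genes; 1 had an unadjusted p under 0.05 against that 35.9%, and their median was 0.09. H3-3A and H3-3B, which encode the replacement variant of H3, had log2 fold changes of 0.10 (adjusted p = 0.665) and -0.08 (adjusted p = 0.574). H2AZ1, which encodes the variant H2A.Z, had 0.11 (adjusted p = 0.772), and H2AX, whose product is phosphorylated at DNA breaks and whose mRNA also has a stem-loop form, had 0.36 (adjusted p = 0.134). H2AX lay between 222 and 432 CPM over the 14 libraries, with its lowest level in control replicate 2.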

How the data were processed

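RNA-seq of poly(A)-selected RNA was analysed in 14 libraries, grouped by their labels. The authors removed reads of the rDNA repeat and assigned the rest to GRCh38 transcripts with Salmon (1.3.0 in the processing notes). The deposited estimated counts are neither normalized nor rounded, and the deposited TPM values come from the same Salmon runs by the authors. Transcripts were matched by identifier to GENCODE 44 (225662 of 228754; unmatched reads 1.03% to 1.13% of a library), summed to genes and rounded. Salmon divides reads between near-identical copies by estimate. Counts were tested with edgeR 4.0.16 in R 4.3.3: TMM, filterByExpr with a minimum count of 10 (15426 genes), 1 model of 7 groups, the quasi-likelihood F test, and Benjamini-Hochberg adjustment over all tested genes. Genes were called where the adjusted p was under 0.05 and the log2 fold change reached 1 in size; another rule left out the fold limit. Class sums and transcript shares are descriptions without a test.

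Members and lists were chosen with earlier results of these data known. Members named are those called or past the adjusted p, the 3 with the highest mean TPM in each histone type, and, of the tested ones, the 2 with the largest and the 2 with the smallest ratio of highest to lowest CPM in each class; from the lists, genes called, SLBP, RNU7-1, H3-3A, H3-3B, H2AZ1 and H2AX were named. The genes at 0, the 6 with both forms, H4C8 and H2BC17 and the values of further genes were also described because of their class, place or values. Alternatives were DESeq2 1.42.0, its size factors, no low-count filter, no fold limit, a transcript-length offset, a replicate block, the 4 libraries of a comparison alone, each library left out, TPM sums, tested members only, and class by splicing; class by the deposited lengths, leaving out H2BC12, and leaving out the 3 members that passed the filter only through the RBI2 libraries at 120 min were added after the data were seen. Where a library was left out, its group kept 1 library and the spread came from the other groups. Replicates of a group differed by more than sampling noise. The authors' comparisons were not used. Counting limits cover counting error only.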

Additional observations from a re-analysis of the deposited data

Results flagged for a closer look

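The direct comparisons of RBI2 with CX-5461 held 7 differences between the compounds that passed edgeR's quasi-likelihood test, each in 2 against 2 libraries that did not overlap. H4C3 was lower with RBI2 at 10 min (log2 fold change -1.43, adjusted p = 0.0477) and at 30 min (-2.87, adjusted p = 0.0132). The 10 min call was not made by DESeq2, with the transcript-length offset, on the 4 libraries alone or with the replicate block. Both calls were lost when certain single libraries were left out, as given above. At 120 min H4C1 (2.71, adjusted p = 0.0115), H1-4 (2.57, adjusted p = 0.00670), H4C16 (2.21, adjusted p = 0.0249), H2BC18 (1.64, adjusted p = 0.0202) and H2BC15 (1.17, adjusted p = 0.0201) were higher with RBI2. The H4C16 value rests on 24 reads with RBI2 and 7 with CX-5461, and this gene entered the test only through the RBI2 libraries at 120 min, in which it is higher, so its adjusted p gives no support.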

How the results depend on the processing

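Most values kept their direction and their side of the threshold, and no value changed sign among the calls. Against the control, the 5 members called with RBI2 at 120 min became 3 with DESeq2, 2 with the transcript-length offset and 0 on the 4 libraries of the comparison; with CX-5461 at 30 min DESeq2 called 1 where edgeR called 0. The single member called between the compounds at 10 min became 0 with DESeq2, with the offset, on 4 libraries alone and with the replicate block. Without the filter on low counts, 1 member was called with RBI2 at 10 min and 1 at 30 min, 1, 2 and 1 with CX-5461 at 10, 30 and 120 min, and 2, 3 and 8 between the compounds. That fit took in the 46 members with reads. The share of all genes called in it is not given here, so these counts are not set against a background. Replicate numbers did not pair the libraries: the correlation of replicate differences over 21 pairs of groups ran from -0.18 to 0.18, and 3 were over 0.1; the block changed no other count. With each library left out in turn, the counts ran from 0 to 10 for RBI2 at 120 min, 0 to 2 at 30 min and 0 to 0 at 10 min; from 0 to 2, 0 to 1 and 0 to 1 for CX-5461 at 10, 30 and 120 min; and from 0 to 1, 0 to 1 and 0 to 9 between the compounds. The higher counts arose without control replicate 1 (10 and 2 for RBI2 at 120 and 30 min, 1 each for CX-5461 at 30 and 120 min), without control replicate 2 (2 for CX-5461 at 10 min), without CX-5461 replicate 1 at 30 min (1 there), and without either control library (9 between the compounds at 120 min). The causes were not tested.

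For the summed level of genes with a polyadenylated form, TPM values gave log2 ratios to the control of 0.029 at 10 min of RBI2, 0.22 at 30 min and 0.56 at 120 min; those of CX-5461 were -0.012, 0.078 and -0.053. With the class set by the deposited lengths, the ratios were 0.011 with RBI2 at 30 min and -0.20 with CX-5461 at 10 min. The share of reads in long forms became 82.1% for H2BC6 and 57.8% for H4C8 on TPM values, from 96.5% and 83.4% on reads. For genes without such a form, the ratio with CX-5461 at 120 min, 0.049, was 0.40 without control replicate 1 and -0.24 without control replicate 2. With each library left out in turn, the ratio also changed sign in other groups. It ran from -0.23 to 0.41 and -0.07 to 0.57 with RBI2 at 10 and 30 min. With CX-5461 at 10 and 30 min it ran from -0.17 to 0.47 and -0.01 to 0.63. Of the 68 members, 44 were not tested: 22 had 1 to 85 reads over the 14 libraries and did not reach the filter's minimum in enough libraries, 21 had no assigned reads, and H3C15 was not analysed.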
